A study of Mus musculus with 16 samples.

Results

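The vacuolar ATPase (V-ATPase), cathepsin and Lamp genes were followed in RNA of mouse cortical synaptosomes. The set was taken by gene symbol from the count table. It holds V-ATPase subunits with symbols starting Atp6v0 or Atp6v1, both accessory subunits, cathepsins with a letter after Cts, and Lamp genes. Ctss, which is listed among the microglia markers, was left out. Tcirg1, a V-ATPase gene with another kind of symbol, is listed with the assembly and interacting genes. The set has 45 of the 48709 genes, made up of 24 V-ATPase genes, 17 cathepsins and 4 Lamp genes. Total RNA depleted of ribosomal RNA was sequenced from cerebral cortex of C57BL/6 mice, with 4 biological replicates in each of 4 groups. Synaptosomes (SYN), which are pinched-off nerve endings enriched from homogenised tissue, came from mice aged 3 weeks, 5 months and 19 months. Total homogenate (TH), kept before the enrichment, came from mice aged 5 months. No group carried a transgene or a treatment in the labels, and the sex of the mice and any pooling are not given there. SYN and TH at 5 months were compared to ask which transcripts differ between the fraction and its source tissue, and the 3 ages of SYN were compared with each other.

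The V-ATPase is a rotary proton pump. Its V1 domain lies in the cytosol and hydrolyses ATP, its V0 domain lies in the membrane and carries protons, and the 2 accessory subunits help to assemble and route the complex. In nerve endings the pump acidifies synaptic vesicles and so powers their filling with transmitter, and in all cells it acidifies lysosomes. Cathepsins are proteases that are made as precursors and work in that acid lumen, and Lamp proteins are heavily glycosylated proteins of the lysosomal membrane. Many genes of this system carry a CLEAR element, a short palindrome bound by the transcription factor TFEB and its relatives, near their start.

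The RefSeq promoter table (GRCm38.p6, 250 bases before to 50 bases after each start) held 35 of the 45 genes. The E-box CACGTG, which reads the same on both strands, stood in promoters of 9 of these 35 genes (25.7%), against 8.09% of the 27025 genes of the table. The longer CLEAR palindrome TCACGTGA, which contains the E-box, stood in 5 of 35 (14.3%: Atp6v0d1, Atp6v0e, Atp6v1a, Ctsa and Ctsd), against 1.12%. The promoters of 5 genes are shown because they hold an E-box outside annotated exons and because they belong to all 3 families. The second E-box of Ctsd, which is its TCACGTGA 99 bases before the RefSeq start, lies in an annotated exon and is not shown. The capitals mark CACGTG, and each sequence is given 5′ to 3′ on the strand of its gene.
Lamp1 (chr8:13159070-13159160, plus strand): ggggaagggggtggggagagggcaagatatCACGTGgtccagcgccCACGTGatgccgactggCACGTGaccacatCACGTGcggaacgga
Atp6v0b (chr4:117887334-117887395, minus strand): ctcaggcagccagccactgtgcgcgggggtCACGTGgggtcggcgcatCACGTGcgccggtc
Atp6v1a (chr16:44139355-44139420, minus strand): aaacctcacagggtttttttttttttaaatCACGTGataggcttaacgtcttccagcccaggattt
Ctsf (chr19:4855056-4855121, plus strand): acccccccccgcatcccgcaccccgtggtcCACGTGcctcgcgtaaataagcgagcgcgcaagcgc
Ctsd (chr7:142388039-142388077, minus strand): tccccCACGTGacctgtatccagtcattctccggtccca
Lamp1 held 4 E-boxes within the last 61 bases before its start, Atp6v0b held 2, and Atp6v1a held 1 that is part of a TCACGTGA 132 bases before the start. Genes with the E-box did not move as one: in the comparison of SYN with TH, 6 of the 9 were higher (Atp6v0b, Ctsa, Ctsd, Ctsf, Ctsl and Lamp1), Atp6v0e was lower, and Atp6v0d1 and Atp6v1a were not called. Of all genes tested in that comparison, 24.5% were higher and 25.6% were lower, and of the 33 members tested 13 were higher. The calls of Atp6v0b and Ctsa were lost under 6 and 2 of 17 alternative settings. A match describes these letters only, and no binding was measured here.

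Depth ran from 10640232 to 21719869 counts per library, and the 45 genes together had 20337 to 51290 counts per library. Mitochondrial ribosomal RNA took 17.6 to 22.0% of the counts in TH and 32.9 to 52.3% in SYN. Levels below are in CPM, the library-size scaled count, with TMM factors over all 16 libraries. Neuron markers summed to 9980 to 11900 CPM in 5 months SYN and 5900 to 6460 CPM in TH, and none of the 12 was at 0 in every library. Of these 12, 6 were higher in SYN, 2 were lower and 4 were not called, with a median log2 fold change of 0.20. Camk2a had the largest part of the sum (4047 to 5075 CPM in SYN and 1254 to 1461 CPM in TH), while Snap25 was lower in SYN (971 to 1158 CPM and 1334 to 1394 CPM). Replicate 1 had the highest mitochondrial ribosomal share in each SYN group. It was 51.7% at 3 weeks (42.6 to 48.6% in the others) and 45.3% at 5 months (36.1 to 39.2%). At 19 months, where the gap was widest, it was 52.3% (32.9 to 33.6%). Counts are given with and without replicate 1 of 3 weeks SYN and of 19 months SYN where they move a result. In bulk samples, fewer cells or endings of a type and less RNA in each cannot be told apart.

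Level per length showed which isoforms were present. In 5 months SYN the highest mean levels in CPM per kb of gene length were those of Atp6v1d, the central stalk subunit, at 60.6, Lamp1 at 56.6 and Ctsb at 43.3. Among subunits with isoforms, the brain form Atp6v1g2 stood at 35.0 and Atp6v1g1 at 7.56, Atp6v0a1 at 32.0 and Atp6v0a2 at 6.66, and Atp6v0e2 at 25.6 and Atp6v0e at 1.22. Among the proteases, Ctsb was followed by Ctsd at 23.3, Ctsl at 17.2 and Ctsf at 8.55, with Ctsz at 7.96 and Ctsa at 6.35. Lamp5, a neuronal relative of Lamp1, stood at 24.0, Lamp2 at 2.83 and Lamp3 at 0.203. The value of Lamp2 is divided by a gene length of 9552 bases, since its alternative last exons all count toward the length, and that of Atp6v0c (3.46) comes from uniquely aligned reads although a near-identical copy, Atp6v0c-ps1, is in the table.

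**Figure D1:**
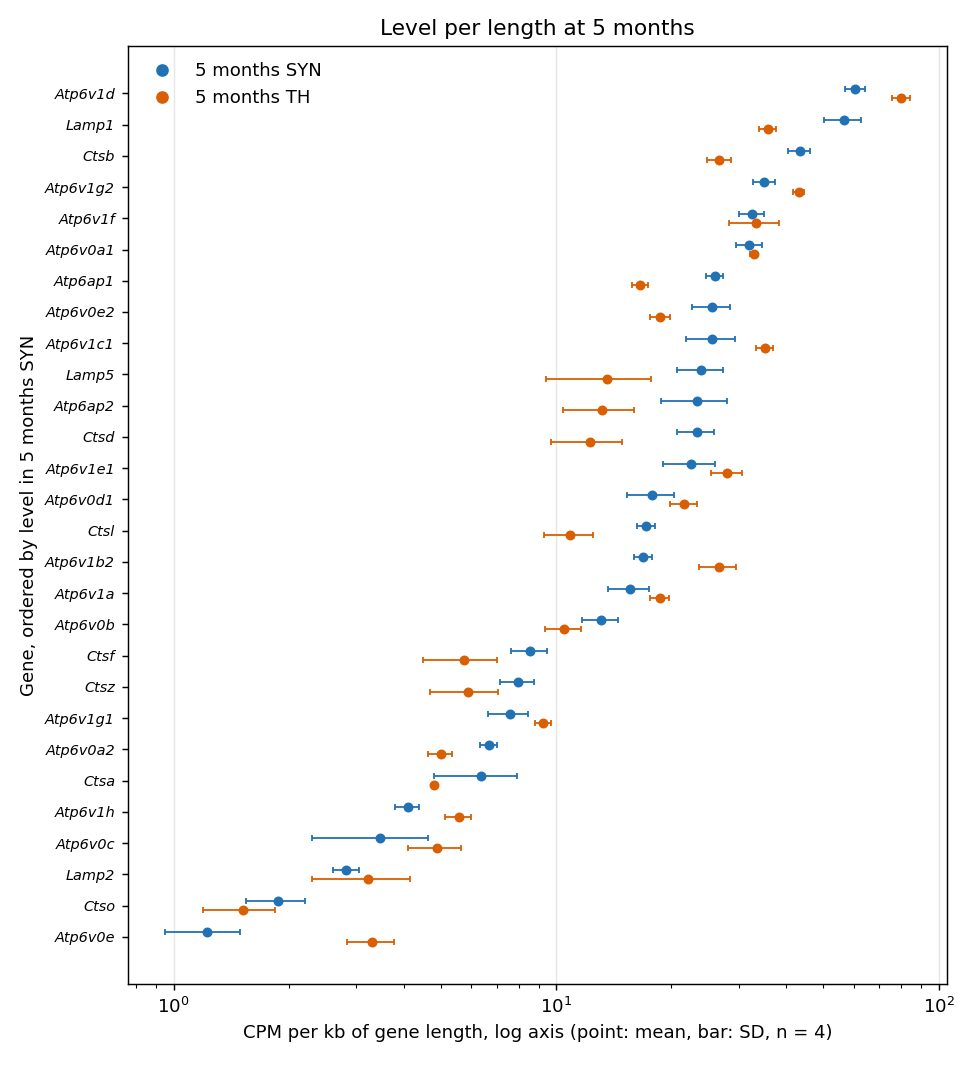
Level of each gene in CPM per kb of gene length on a log axis, in 5 months SYN (blue) and 5 months TH (orange), as mean and SD of 4 libraries, for genes at 1 CPM per kb or more in 5 months SYN. Atp6v1d, Lamp1 and Ctsb stand highest in SYN, at 60.6, 56.6 and 43.3, and Atp6v0e stands at 1.22 in SYN and 3.31 in TH.

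The isoforms of other organs were at or near 0. Atp6v1g3 and the placental cathepsins Ctsj, Ctsm, Ctsq and Ctsr had 0 counts in all 16 libraries, and a count of 0 allows up to 3 counts in a library. Another 7 genes had few counts over all libraries: Atp6v0a4 had 14, Ctse 10, Atp6v1b1 8, Atp6v1e2 7, Atp6v0d2 6, Ctsg 2 and Ctsw 1. Atp6v0a4 and Atp6v1b1 are known from the kidney and Atp6v0d2 from osteoclasts. These 12 did not pass the filter on low counts, which left 33 genes tested between SYN and TH, and 32 between ages, where Atp6v1c2 also fell below it.

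Between SYN and TH at 5 months, called V1 genes were all lower, called cathepsin, Lamp and accessory genes were all higher, and V0 genes were mixed. Of the 33 genes tested, 13 were higher in SYN (24.5% of all 17374 genes tested were higher) and 7 were lower (25.6% of all were lower), by edgeR's quasi-likelihood test at an adjusted p under 0.05. No V1 gene was higher and 6 of 10 were lower, while both accessory subunits, 6 of 10 cathepsins and 2 of 4 Lamp genes were higher and none of these was lower. Of the V0 genes, 3 of 7 were higher and 1 was lower. The median log2 fold change was -0.32 for the V1 genes, 0.00 for the V0 genes and 0.46 for the cathepsins, beside -0.05 over all genes tested. The V1 genes summed to 571 to 616 CPM in the SYN libraries and 708 to 798 CPM in the TH libraries, ranges that did not overlap.

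Within the V1 domain, Atp6v1b2 (chr8:69088646-69113711), the B subunit of the ATP-splitting ring in brain, differed most among the called genes. It stood at 88.7, 95.5, 84.1 and 91.3 CPM in SYN replicates 1 to 4 and at 119.9, 138, 154 and 152 CPM in TH. Every TH library lay above every SYN library, and Atp6v1b2 fell by 0.61 (SE 0.084, adjusted p = 2.79e-05, edgeR), on the log2 scale. Atp6v1d stood at 81.9, 79.6, 90.9 and 87.6 CPM in SYN and at 104, 117, 116 and 112 CPM in TH, a log2 fold change of -0.36 (SE 0.076, edgeR adjusted p = 0.00101). Atp6v1h, which couples ATP splitting to rotation, stood at 39.5, 41.9, 35.8 and 42.2 CPM in SYN and at 51.3, 55.2, 50.6 and 59.6 CPM in TH. Its log2 fold change was -0.41 (SE 0.088, edgeR adjusted p = 0.00135). Neither gene's groups overlapped.

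Of the peripheral stalk genes, Atp6v1c1, Atp6v1g2 and Atp6v1e1 were lower and Atp6v1g1 was not called. Atp6v1c1 stood at 42.8 to 61.1 CPM in SYN and 68.6 to 77.9 CPM in TH, a log2 fold change of -0.42 (SE 0.099, edgeR adjusted p = 0.00249). Atp6v1g2 stood at 79.7 to 92.2 CPM in SYN and 105 to 113 CPM in TH, with a log2 fold change of -0.27 (SE 0.073, edgeR adjusted p = 0.00701). Atp6v1e1 had a log2 fold change of -0.28 (edgeR adjusted p = 0.0341), its groups overlapped, and its call was lost without any 1 of 5 libraries (SYN replicates 2, 3 and 4 and TH replicates 3 and 4; log2 fold changes of -0.30 to -0.23). Atp6v1a, the catalytic A subunit, stood at 79.5 to 107.1 CPM in SYN and 107.2 to 121 CPM in TH and just missed the threshold, at a log2 fold change of -0.22 (edgeR adjusted p = 0.0508). Under 10 of 17 alternatives Atp6v1a was called lower. Atp6v1f, the other subunit of the central shaft, was at a log2 fold change of 0.00 (SE 0.114), and Atp6v1g1 and the scarce Atp6v1c2 were not called.

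The V0 domain was split between its isoforms. Atp6v0e, a small membrane subunit, stood at 3.67, 2.97, 4.20 and 5.06 CPM in SYN and at 8.92, 11.1, 10.6 and 12.6 CPM in TH. It was 2.64-fold lower in SYN, a log2 fold change of -1.40 (SE 0.197, edgeR adjusted p = 3.52e-05). Its paralog Atp6v0e2, the form found mainly in brain, went the other way, at 52.4, 63.9, 68.7 and 59.0 CPM in SYN and 43.1, 41.9, 44.7 and 48.1 CPM in TH. Its log2 fold change was 0.49 (SE 0.093, edgeR adjusted p = 0.000497), and the groups of neither paralog overlapped. All 12 markers of endothelial and mural cells fell in SYN (summed level 31.3 to 77.4 CPM in SYN and 222 to 331 CPM in TH). The sum of 77.4 CPM was that of SYN replicate 4, with 31.3 to 44.0 CPM in the other SYN libraries, and Atp6v0e was also highest of SYN in replicate 4. The part of these markers in the fall of Atp6v0e was not tested.

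Of the subunits that bind the V1 domain or form the proton path, Atp6v0a2, the form known from Golgi and endosomes, was higher in SYN, at 42.2 to 46.7 CPM against 30.9 to 36.8 CPM in TH. Its log2 fold change was 0.45 (SE 0.088, edgeR adjusted p = 0.000602). Atp6v0a1, the form known from synaptic vesicles, did not differ detectably, at 187 to 226 CPM in SYN and 210.2 to 220.4 CPM in TH (log2 fold change 0.00, SE 0.073). Atp6v0b, part of the proton-carrying ring, was higher by a log2 fold change of 0.36 (edgeR adjusted p = 0.019), a call lost under 6 of 17 alternatives. The other ring gene, Atp6v0c, stood at -0.46 (SE 0.208) and Atp6v0d1 at -0.24 (SE 0.11), neither called. Atp6v0c was called lower under 5 of 17 alternatives, among them the replicate block (-0.49), and Atp6v0d1 under 4. The d1 subunit is bound to the cytosolic face of V0 and is made without entering the membrane.

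Both accessory subunits were higher. Atp6ap1 (chrX:74297097-74304721) stood at 73.9, 78.2, 84.1 and 78.9 CPM in SYN and at 48.5, 48.5, 50.5 and 53.7 CPM in TH, a log2 fold change of 0.68 (SE 0.077, edgeR adjusted p = 3.97e-06). Atp6ap2, also known as the prorenin receptor, stood at 44.0, 70.1, 69.4 and 61.7 CPM in SYN and at 28.4, 31.5, 33.0 and 45.0 CPM in TH. It was 1.82-fold higher (log2 0.87, SE 0.164, edgeR adjusted p = 0.000928), although SYN replicate 1 lay below the highest TH library.

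Cathepsins were higher in SYN wherever they were called. Ctsd (chr7:142375911-142388038), the main aspartic protease of the lysosome, stood at 52.0, 60.9, 47.6 and 58.8 CPM in SYN and at 27.4, 24.4, 26.1 and 38.0 CPM in TH. Its level was 1.94-fold higher (log2 0.96, SE 0.131, edgeR adjusted p = 3.02e-05). Ctsb, a cysteine protease, stood at 192, 223, 207 and 199 CPM in SYN and at 121, 119, 129 and 139 CPM in TH (log2 0.73, SE 0.076, edgeR adjusted p = 1.54e-06). Neither of these overlapped between the fractions.

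The cysteine proteases Ctsl and Ctsf were higher as well. Ctsl stood at 31.9, 33.8, 36.3 and 33.5 CPM in SYN and at 22.5, 18.4, 19.7 and 25.5 CPM in TH (log2 0.69, SE 0.113, edgeR adjusted p = 0.000145). Ctsf stood at 14.3, 18.4, 17.4 and 17.5 CPM in SYN and at 7.93, 11.3, 12.4 and 13.8 CPM in TH (log2 0.60, SE 0.162, edgeR adjusted p = 0.00605). For both, every SYN library was above every TH library. The serine carboxypeptidase Ctsa, which protects other lysosomal enzymes, was higher by a log2 fold change of 0.44 (edgeR adjusted p = 0.021), a call lost without SYN replicate 2 (0.29) and under upper-quartile scaling (0.30). Ctsz was higher by 0.48 (edgeR adjusted p = 0.031), a call lost under 9 of 17 alternatives. Ctsc, Ctsh, Ctsk and Ctso were not called, with log2 fold changes from -0.47 to 0.34 and SEs of 0.187 to 0.578.

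Of the Lamp genes, Lamp1 stood at 134, 173, 155 and 143 CPM in SYN and at 88.5, 97.8, 99.7 and 96.7 CPM in TH, 1.62-fold higher (log2 0.70, SE 0.084, edgeR adjusted p = 7.55e-06). Lamp5 stood at 65.6, 71.5, 83.4 and 61.5 CPM in SYN and at 54.1, 45.1, 33.6 and 26.6 CPM in TH (log2 0.86, SE 0.211, edgeR adjusted p = 0.00764). Neither overlapped, though the TH libraries of Lamp5 were widely spread. Lamp2 was at -0.15 (SE 0.158) and the scarce Lamp3 at -0.63 (SE 0.63), neither called.

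**Figure D2:**
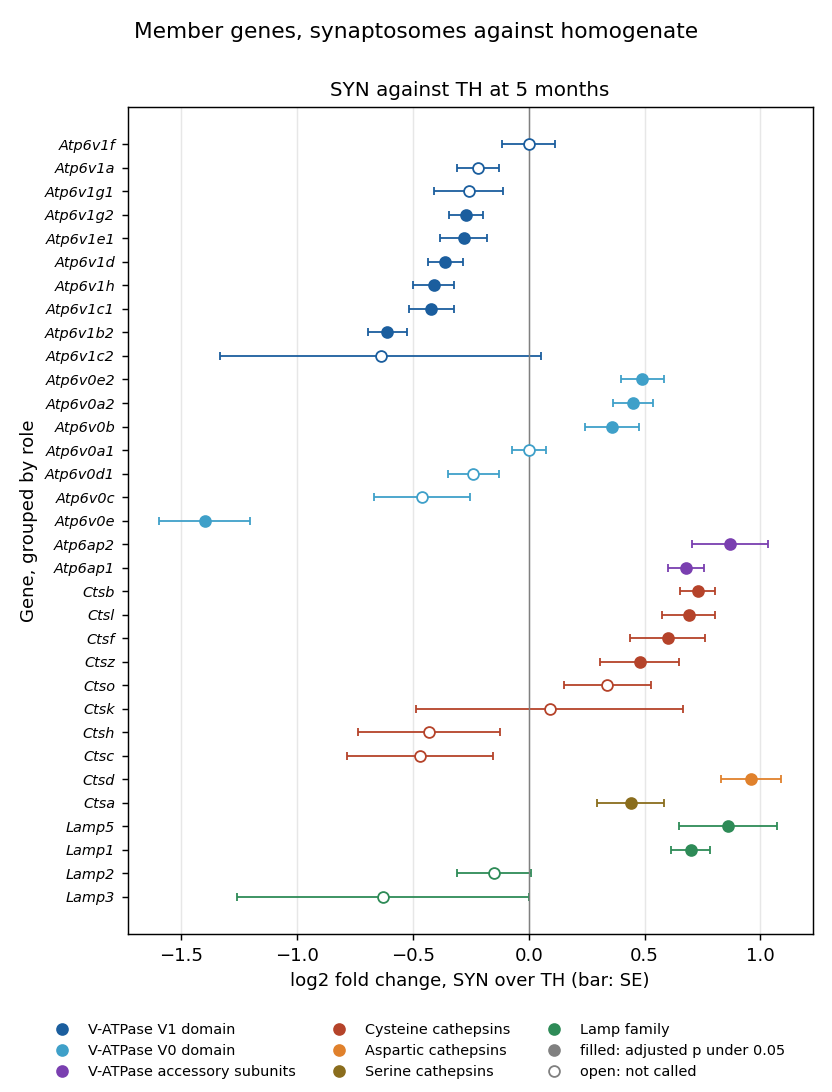
Log2 fold change of SYN over TH at 5 months with its SE for the 33 genes tested, grouped by role, filled where the edgeR adjusted p was under 0.05. The V1 genes sit at or left of 0 down to -0.64, while the accessory subunits, Ctsb, Ctsd, Ctsl, Ctsf, Lamp1 and Lamp5 sit between 0.60 and 0.96.

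Members were also grouped by where the protein is made. The 11 tested genes of subunits made in the cytosol (the V1 genes and Atp6v0d1) had 0 higher, 6 lower and no log2 fold change above 0.00, with a median of -0.28. The 22 tested genes of products that enter the membrane or lumen had 13 higher and 1 lower (Atp6v0e), with a median of 0.44. This grouping was chosen after the values were seen and has no test. Among all genes called, 48.8% were higher in SYN under TMM scaling and 37.9% under upper-quartile scaling, which shifted the median of all genes by -0.141 and gave 10 members higher and 11 lower.

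Ratios of counts per kb within a library do not depend on scaling between libraries. Atp6v0e2 to Atp6v0e had a median of 21.0 and a highest value of 29.4 in 5 months SYN. It was 20.7 to 24.8 in 3 weeks SYN and 18.5 to 26.3 in 19 months SYN, and 5.16 to 6.62 in TH. Atp6ap1 to Atp6v1b2 was 1.44 to 1.75 in 5 months SYN and 0.573 to 0.709 in TH. Lamp1 to Lamp2 was 18.4 to 22.1 in 5 months SYN and 7.91 to 14.2 in TH. In each of these the SYN libraries all lay above the TH libraries at 5 months. The ratio shows unequal change only, and the pairs were picked after their values were seen.

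Among other genes of the organelle, the hydrolases were often higher and the remaining lists were mixed, beside 24.5% higher and 25.6% lower over all genes. Of 37 other lysosomal hydrolases and activators, 19 were higher in SYN and 1 was lower, with a median of 0.41. They included Psap, the precursor of the saposins (log2 1.00, SE 0.113), Acp2 (0.92, SE 0.101) and Ids (0.85, SE 0.074). Of 21 other lysosomal membrane proteins, 8 were higher, among them Scarb2, the receptor that carries glucocerebrosidase (0.89, SE 0.083), and 3 were lower, among them the calcium channel gene Mcoln1 (-0.64, SE 0.105). Of 11 genes for V-ATPase assembly or interaction tested, 0 were higher and 4 were lower: Dmxl1, Oxr1, Ncoa7 and Rogdi, at -0.63 to -0.21. Of 11 sorting and regulatory genes, 3 were higher (Sort1, Gnptab and Igf2r) and 1 was lower (Zkscan3). Of the cystatins, the cathepsin inhibitors, 1 of 3 tested was higher, Cst3 at 1.37 (SE 0.084).

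Glial markers moved with these genes. Of 16 microglia markers, 15 were higher in SYN, with a median log2 fold change of 1.27 and a summed level of 266 to 312 CPM in SYN and 128 to 140 CPM in TH. Of 12 astrocyte markers, 11 were higher (7690 to 8800 CPM against 3450 to 4180 CPM), as were 6 of 10 oligodendrocyte and myelin markers (2350 to 2900 CPM against 1600 to 1800 CPM). None of these markers was at 0 in every library. Cathepsins and Lamp genes are expressed in glia as well as in neurons, and the part of the glial markers in these differences was not tested. The list of membrane proteins shares Cd68 and Laptm5 with the microglia list.

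From 3 weeks to 5 months, V-ATPase and cathepsin transcripts of SYN fell or were not called. Of the 32 genes tested, 0 were higher (13.3% of all 15344 genes tested were higher) and 10 were lower (11.3% of all were lower), by edgeR's quasi-likelihood test. No member had an unadjusted p under 0.05 with a log2 fold change above 0, and DESeq2's Wald test also called 0 higher. The genes that fell were Ctsf, Ctsl, Atp6v0d1, Atp6v1b2, Atp6v0e2, Atp6v1g1, Lamp1, Atp6v1e1, Atp6v1c1 and Atp6v1g2. The median over the tested members was -0.25, beside 0.00 over all genes. Without 3 weeks SYN replicate 1, 16 were lower, and without 5 months SYN replicates 1 and 4, 6 were lower.

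The largest falls among the called genes were in cysteine cathepsins. Ctsf, at chr19:4855129-4860912, stood at 30.9, 38.1, 33.3 and 32.9 CPM at 3 weeks and at 14.3, 18.4, 17.4 and 17.5 CPM at 5 months. It was 1.97-fold lower (log2 -0.98, SE 0.12, edgeR adjusted p = 9.9e-07). Ctsl, at chr13:64363214-64370306, stood at 43.6, 64.8, 63.8 and 70.1 CPM at 3 weeks and at 31.9, 33.8, 36.3 and 33.5 CPM at 5 months (log2 -0.82, SE 0.119, edgeR adjusted p = 1.21e-05). Every 3 weeks library of both genes lay above every 5 months library, with replicate 1 the lowest at 3 weeks.

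No other cathepsin was called. Ctso stood at 12.2 to 14.9 CPM at 3 weeks and 7.32 to 11.3 CPM at 5 months, without overlap, at a log2 fold change of -0.44 (SE 0.166, edgeR adjusted p = 0.0544). Ctso was called lower under 3 of 19 alternatives, namely the replicate block (-0.44), DESeq2's Wald test (-0.43) and the fit without 5 months SYN replicate 2 (-0.52). The scarce Ctsk was at -0.92 (SE 0.491, edgeR adjusted p = 0.182) and was called lower without 5 months SYN replicate 2 (-1.57). Ctsd stood at 27.3, 54.1, 48.6 and 53.0 CPM at 3 weeks and 47.6 to 60.9 CPM at 5 months, a log2 fold change of 0.28 (SE 0.149, edgeR adjusted p = 0.18). Ctsb stood at 153, 254, 238 and 242 CPM at 3 weeks and 192 to 223 CPM at 5 months, a log2 fold change of -0.09 (SE 0.113) that became -0.22 and was called without 3 weeks SYN replicate 1. Within libraries, the ratio of Ctsl to Ctsd per length was 1.43 to 1.90 at 3 weeks, 0.663 to 0.909 at 5 months and 0.682 to 0.791 at 19 months. That of Ctsf to Ctsd was 0.739 to 1.34, 0.327 to 0.435 and 0.318 to 0.397. In both, the youngest libraries lay above all others, TH included (highest values 0.983 and 0.567).

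In the V-ATPase, 5 of 9 V1 genes tested were lower at 5 months than at 3 weeks. Atp6v1b2 stood at 129, 141, 145 and 121 CPM at 3 weeks and 84.1 to 95.5 CPM at 5 months (log2 -0.55, SE 0.093, edgeR adjusted p = 8.12e-05). Atp6v1e1 stood at 117 to 129 CPM at 3 weeks and 80.6 to 112 CPM at 5 months (log2 -0.37, SE 0.097, edgeR adjusted p = 0.00592). Atp6v1g2 stood at 107 to 113 CPM and 79.7 to 92.2 CPM (log2 -0.30, SE 0.085, edgeR adjusted p = 0.0108), a call lost without 5 months SYN replicates 1 and 4 (-0.24). Atp6v1c1 was at -0.31 and Atp6v1g1 at -0.44, with calls lost under 5 and 9 of 19 alternatives. The V1 genes together summed to 709 to 793 CPM at 3 weeks, 571 to 616 CPM at 5 months and 577 to 604 CPM at 19 months, so the 3 weeks SYN sum overlapped that of TH at 5 months (708 to 798 CPM).

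Of the V0 genes, 2 of 7 were lower. Atp6v0d1 was at 49.1, 50.7, 48.6 and 49.9 CPM at 3 weeks, a narrow range, and at 33.5, 35.5, 25.3 and 33.4 CPM at 5 months (log2 -0.61, SE 0.11, edgeR adjusted p = 0.000163). Atp6v0e2 was at 75.3, 95.8, 94.1 and 92.4 CPM at 3 weeks and 52.4, 63.9, 68.7 and 59.0 CPM at 5 months (log2 -0.53, SE 0.105, edgeR adjusted p = 0.000517). The groups of both genes were apart. Atp6v0c had the largest SE of the V0 genes, at -0.71 (SE 0.27, edgeR adjusted p = 0.0682), and was called lower without 3 weeks SYN replicate 1 (-0.92). Atp6ap1 (-0.26) and Atp6ap2 (-0.25) were not called, and both were called lower without that library (-0.40 and -0.42).

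Lamp1 was at 153, 221, 214 and 229 CPM at 3 weeks and at 134, 173, 155 and 143 CPM at 5 months (log2 -0.41, SE 0.106, edgeR adjusted p = 0.00534). The groups overlapped through 3 weeks SYN replicate 1, and the call was lost without 5 months SYN replicates 1 and 4 (-0.30). Lamp2 was at 0.06 (SE 0.129) and Lamp5 at 0.23 (SE 0.226), neither called. The ratio of Lamp1 to Lamp2 per length was 25.3 to 29.2 at 3 weeks, 18.4 to 22.1 at 5 months and 17.2 to 19.3 at 19 months, so the 3 weeks libraries lay above the rest.

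**Figure D3:**
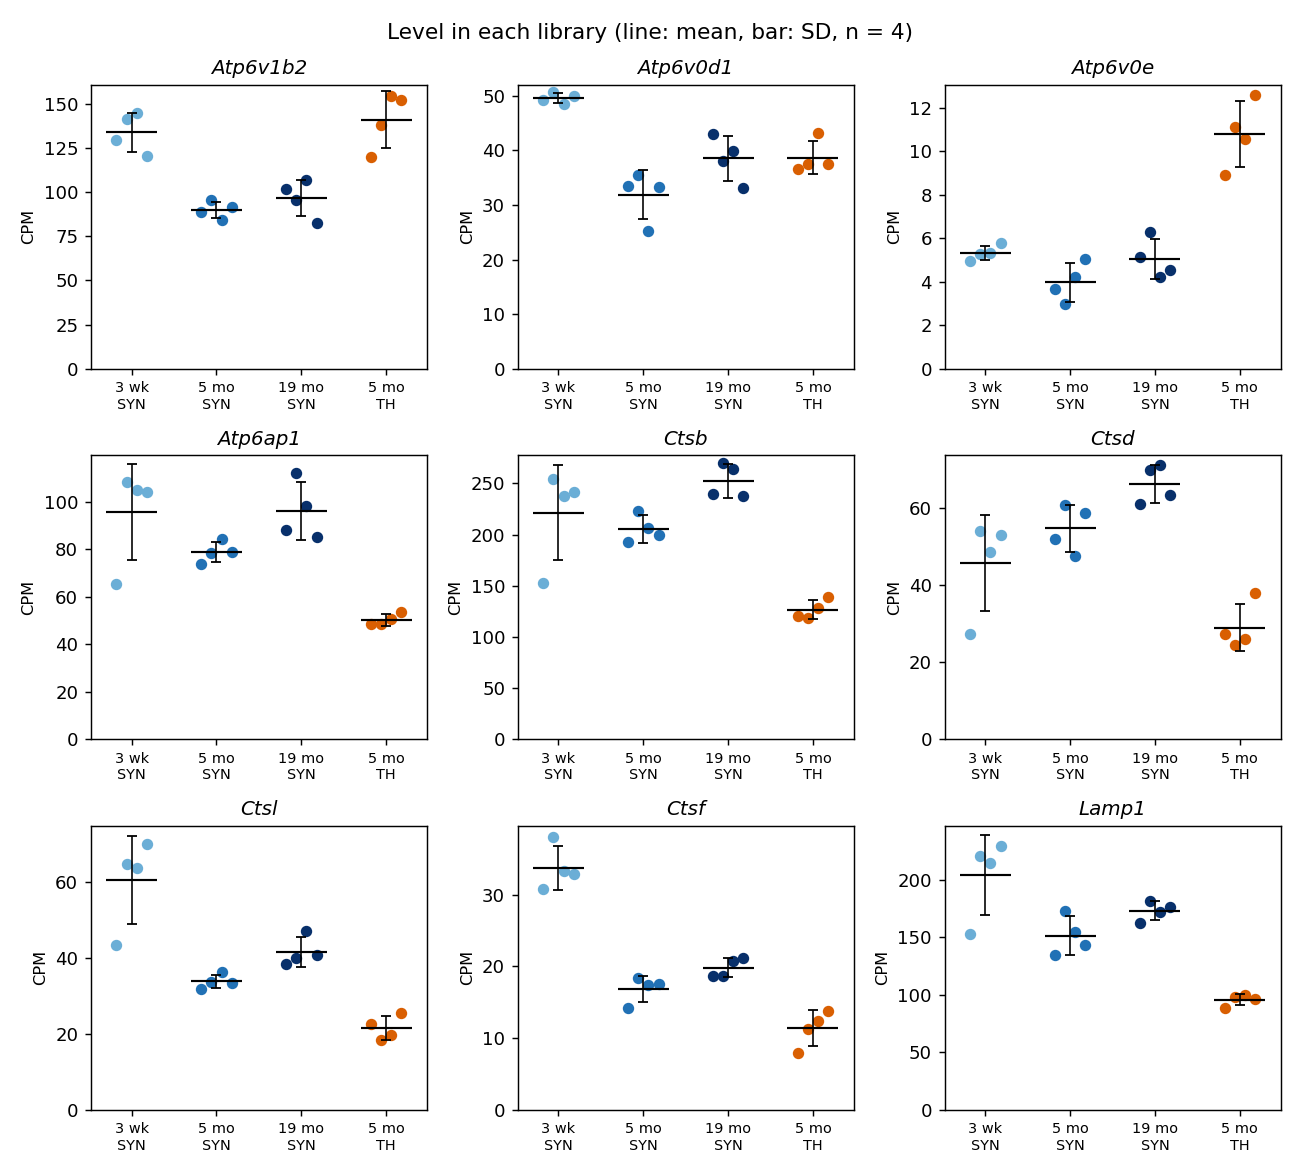
CPM of 9 genes in each library of SYN at each age and of TH, with the mean (line) and SD (bar) of 4 libraries. Ctsl and Ctsf are highest at 3 weeks, Ctsb and Ctsd are lowest in TH apart from 1 library of 3 weeks SYN in Ctsd, and Atp6v0e is highest in TH.

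Markers of other cells moved between these ages as well. Of 10 oligodendrocyte and myelin markers, 9 were lower at 5 months, with a median log2 fold change of -1.83 and a summed level of 7450 to 10500 CPM at 3 weeks and 2350 to 2900 CPM at 5 months. Of 16 microglia markers, 6 were higher and 0 lower (192 to 283 CPM and 266 to 312 CPM). Of 12 astrocyte markers, 1 was higher and 2 were lower. Their part in the falls above was not tested. The mitochondrial ribosomal share was 42.6 to 51.7% at 3 weeks and 36.1 to 45.3% at 5 months, also not tested.

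Other genes of the organelle were mostly not called between these ages. Of the 37 other hydrolases and activators, 2 were higher and 5 lower, with a median of -0.06. They included Gm2a, the activator of ganglioside breakdown (log2 -0.96, SE 0.109), Lgmn, a protease that processes cathepsins (-0.62, SE 0.117), and Dpp7 (0.90, SE 0.269). Of 20 other lysosomal membrane proteins tested, 0 were higher and 2 were lower (Sidt2 and Abcb9). Of 11 assembly genes, Oxr1 was higher (0.30) and Rogdi, Wdr7 and Dmxl2 were lower (-0.37 to -0.23). Of the sorting genes, Sort1 was higher (0.31) and Gnptab lower (-0.27). No cystatin was called.

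Between 5 and 19 months no member passed the threshold, and most values were above 0. Of 32 tested, 0 were higher (0.13% of all genes tested were higher) and 0 were lower (0.169% of all were lower) by edgeR, and DESeq2's Wald test also called 0. At an unadjusted p under 0.05, 11 members were higher and 0 lower, beside 6.09% and 7.61% of all genes, and the lowest adjusted p was 0.171, for Atp6v0e2. The log2 fold change was above 0 in 26 of 32, with a median of 0.25 beside 0.00 over all genes. In 10 members all 4 libraries at 19 months lay above all 4 at 5 months, and in 0 all lay below, beside 3.56% and 4.6% of all genes tested. None of these counts over members is a test, since genes of a library are not independent.

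The 10 genes whose ages did not overlap were Ctsb, Ctsd, Ctsf, Ctsl, Lamp2, Atp6ap1, Atp6ap2, Atp6v0a2, Atp6v1f and Atp6v1g1. Ctsb stood at 192 to 223 CPM at 5 months and at 239, 269.7, 264 and 237 CPM at 19 months, a log2 fold change of 0.29 (SE 0.113, edgeR adjusted p = 0.248). Lamp2 stood at 23.9 to 28.5 CPM at 5 months and at 31.8, 37.8, 35.6 and 32.7 CPM at 19 months (0.34, SE 0.129, edgeR adjusted p = 0.229). Atp6ap2 stood at 44.0 to 70.1 CPM and at 71.7, 89.0, 92.4 and 79.4 CPM (0.43, SE 0.212, edgeR adjusted p = 0.398). Of the genes made as membrane or lumenal products, 21 of 22 were above 0, and of the cytosolic subunits 5 of 10 were. That grouping was chosen after the values were seen and has no test. Replicate 1 was the lowest library in 12 of 18 membrane or lumenal genes at 5 months and in 10 of 18 at 19 months, for genes at a mean of 5 CPM or more. The part of these libraries was not tested. Microglia markers summed to 266 to 312 CPM at 5 months and 333 to 509 CPM at 19 months, with 1 of 16 called higher (C1qb, 0.77), and their part was not tested. Of the other lysosomal lists and the assembly, sorting and cystatin lists, 0 genes were called.

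**Figure D4:**
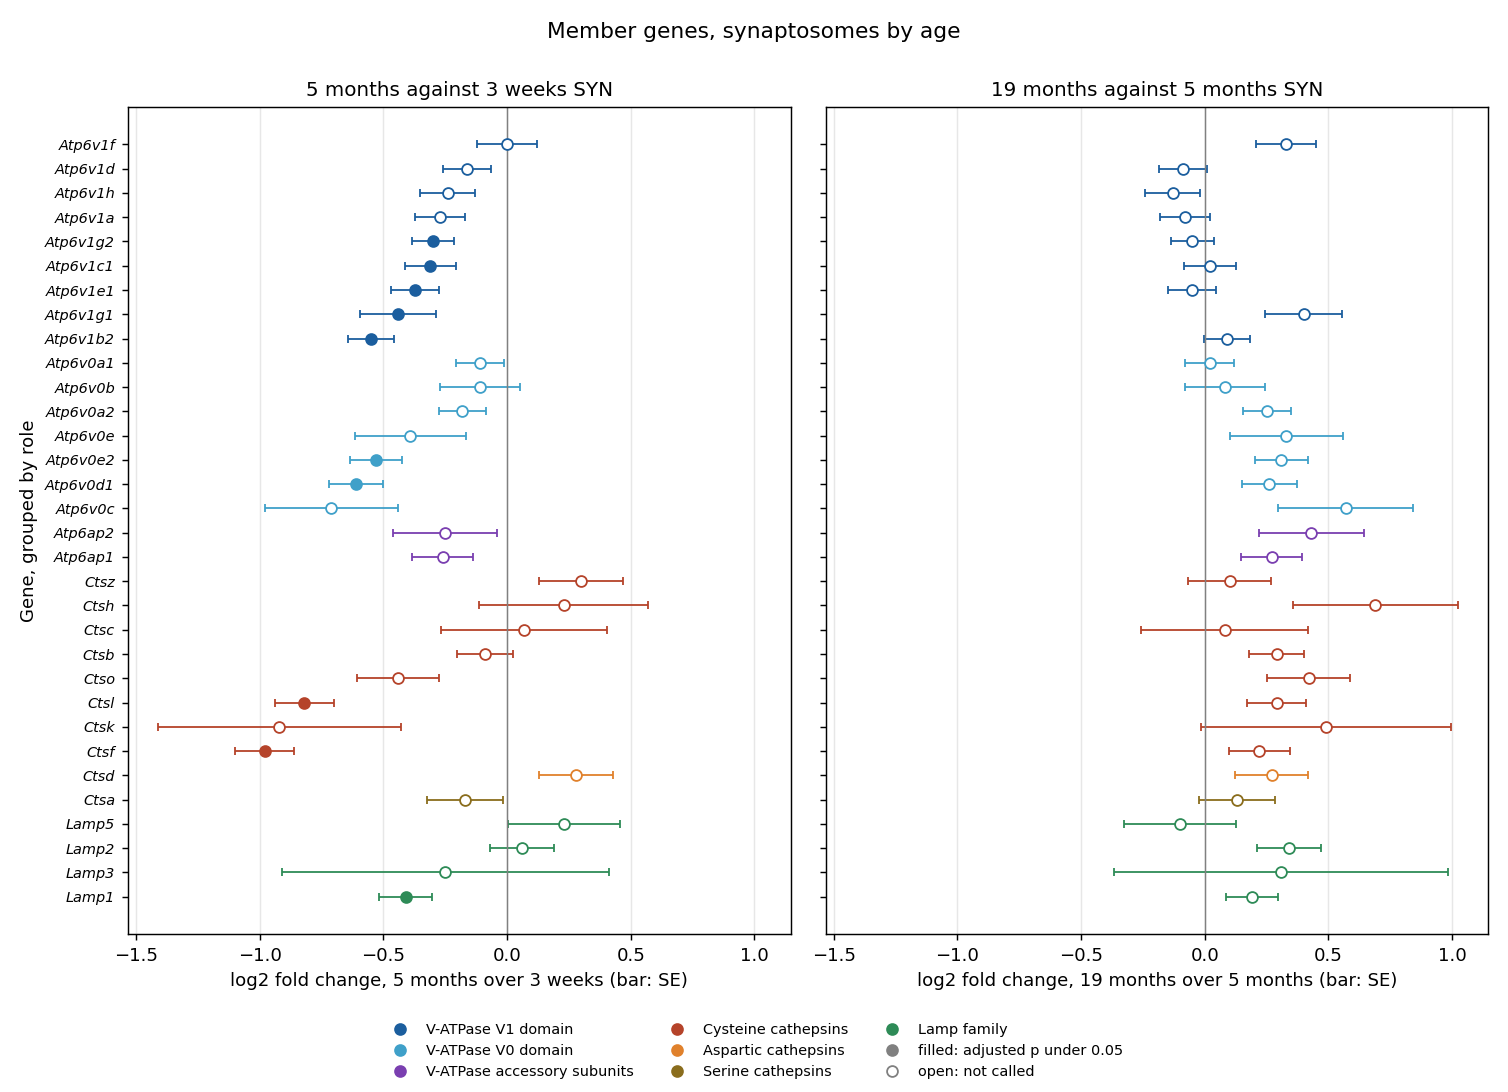
Log2 fold change with its SE for the 32 genes tested in SYN, from 3 weeks to 5 months (left) and from 5 to 19 months (right), filled where the edgeR adjusted p was under 0.05. On the left 10 genes are filled and all of these are below 0, and on the right none is filled and 26 of 32 are above 0.

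Over the whole span from 3 weeks to 19 months, 5 V1 genes, Atp6v0d1, Ctsf and Ctsl were lower and Ctsd and Lamp2 were higher. Of 32 tested, 2 were higher (10.0% of all genes tested were higher) and 8 were lower (9.44% of all were lower) by edgeR. Ctsd stood at 27.3 to 54.1 CPM at 3 weeks and at 61.2, 69.97, 71.2 and 63.4 CPM at 19 months, a log2 fold change of 0.55 (SE 0.149, edgeR adjusted p = 0.0117). Ctsd was called under all 18 alternatives, at log2 fold changes of 0.38 to 0.64. Lamp2 stood at 18.9 to 31.2 CPM at 3 weeks and 31.8 to 37.8 CPM at 19 months (0.40, SE 0.129, edgeR adjusted p = 0.0283), a call lost under 6 of 18 alternatives, among them the one without 3 weeks SYN replicate 1 (0.28). Neither gene's groups overlapped. This comparison shares its 3 weeks libraries with the step to 5 months and its 19 months libraries with the step from 5 months.

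The genes that were lower at 19 months than at 3 weeks were Ctsf (-0.76, SE 0.12), Ctsl (-0.53, SE 0.119), Atp6v1b2 (-0.46, SE 0.093), Atp6v1e1 (-0.41, SE 0.097), Atp6v1h (-0.37, SE 0.111), Atp6v1a (-0.35, SE 0.102), Atp6v1g2 (-0.35, SE 0.086) and Atp6v0d1 (-0.35, SE 0.109). Atp6v1e1 stood at 117 to 129 CPM at 3 weeks and 87.2 to 92.9 CPM at 19 months, with no overlap. Ctsl stood at 43.6 to 70.1 CPM and 38.5 to 47.2 CPM, and overlapped only through 3 weeks SYN replicate 1. Calls of Atp6v0d1 and Atp6v1a were each lost under 3 of 18 alternatives and that of Atp6v1h under 2. Of 9 V1 genes tested, Atp6v1f alone had a log2 fold change above 0 (0.33, SE 0.121, edgeR adjusted p = 0.0531), and it was called higher under 8 of 18 alternatives. The scarce Ctsh had the highest log2 fold change of the members, 0.92. It was not called, but was called higher under 5 of 18 alternatives. Of 16 microglia markers 10 were higher (192 to 283 CPM at 3 weeks and 333 to 509 CPM at 19 months) and of 10 myelin markers 9 were lower, and their part in these values was not tested.

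Other lysosomal genes went both ways over this span. Of 37 hydrolases and activators, 2 were higher, among them Dpp7 (0.85), and 3 were lower, among them Gm2a (-0.88) and Lgmn (-0.46). Of 20 membrane proteins tested, 3 were higher (Cd63, 1.06, Laptm4b, 0.83, and Laptm5, 0.75) and 0 were lower. Of 11 assembly genes, 0 were higher and 3 were lower (Rogdi, -0.48, Dmxl2, -0.47, and Wdr7, -0.27). The sorting genes M6pr (0.51) and Sort1 (0.32) and the cystatin Cst3 (0.42) were higher. Laptm5 is also a microglia marker.

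**Figure D5:**
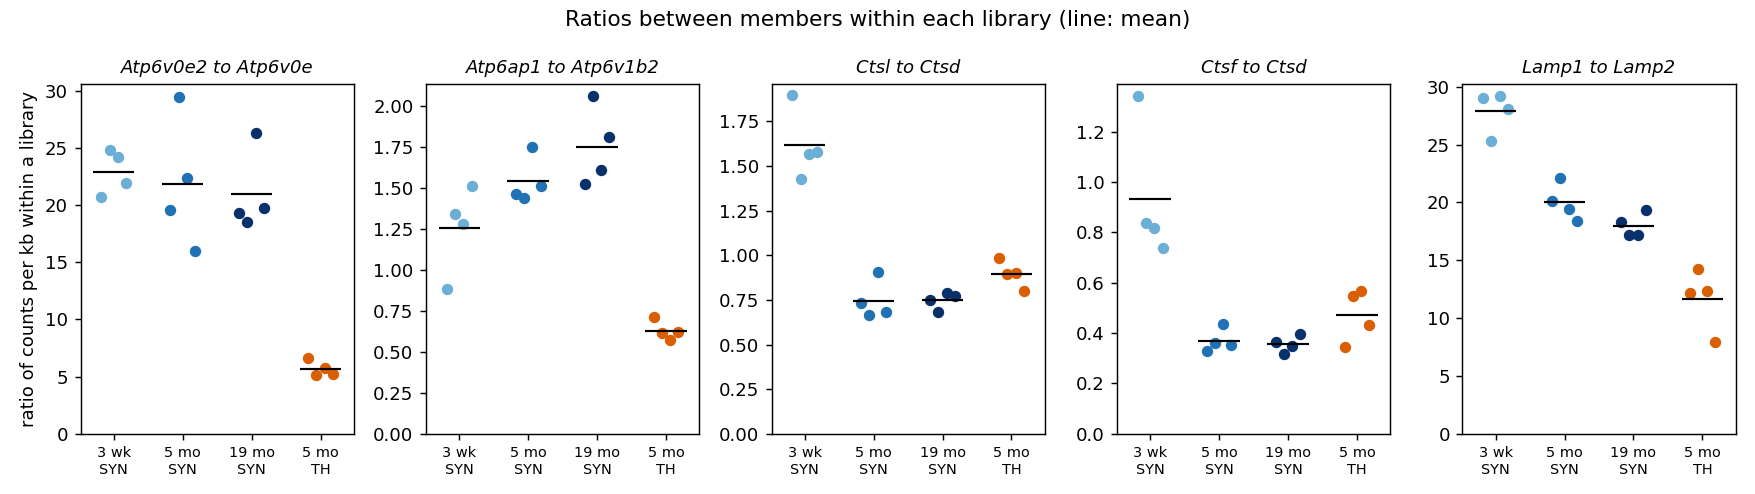
Ratio of counts per kb between pairs of genes within each library (points) and the group mean (line) for SYN at each age and for TH. Atp6v0e2 to Atp6v0e has a median of 21.0 in 5 months SYN and is at most 6.62 in TH, and Ctsl to Ctsd is 1.43 or more at 3 weeks and at most 0.983 elsewhere.

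One library at 3 weeks was low in many members. Among members at a mean of 5 CPM or more, 3 weeks SYN replicate 1 was the lowest of its group in 17 of 18 genes of membrane or lumenal products and in 4 of 10 genes of cytosolic subunits. The corresponding counts were 12 of 18 and 1 of 10 for 5 months SYN replicate 1, and 10 of 18 and 2 of 10 for 19 months SYN replicate 1. These 3 libraries had the highest mitochondrial ribosomal share of their groups (51.7%, 45.3% and 52.3%), whose part was not tested. In TH the library with the highest share, replicate 4 (22.0%), was the lowest in 2 of 18 of these genes, and replicate 1 (18.7%) in 9 of 18. The members of membrane or lumenal products summed to 952 CPM in 3 weeks SYN replicate 1 and to 1390 to 1470 CPM in the other 3 weeks libraries, while cytosolic subunits summed to 758 CPM and 781 to 842 CPM. The low level was not particular to the members. Other hydrolases summed to 1360 CPM in that library (1826 to 1989 CPM in the others), and sorting genes to 496.5 CPM (642.1 to 697 CPM). Neuron markers (10280 CPM, 10020 to 10310 CPM) and astrocyte markers (11040 CPM, 7854 to 9461 CPM) were not low there. How often this library was lowest over all genes was not counted.

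Splicing of the members was read from tables in which the authors compared the ages of SYN. In the authors' deposited LeafCutter table, which groups introns that share an end into clusters, 0 of 13 member clusters passed an adjusted p of 0.05 from 3 weeks to 5 months (6.61% of all clusters did). The counts were 0 of 10 from 5 to 19 months (0.768% of all) and 0 of 14 from 3 weeks to 19 months (4.81% of all), in the authors' deposited tables. At the authors' unadjusted p under 0.05 there were 1, 0 and 5 member clusters. Since LeafCutter tests only clusters with enough reads, only 6 to 10 genes of the set had one in a comparison.

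The last-exon choice of Lamp2 had the largest shift among clusters with an unadjusted p under 0.05. Lamp2 on chromosome X ends in alternative last exons that give the protein different membrane anchors, and its 3 competing introns share the end at 38424266. In the authors' deposited table the intron of transcript Lamp2-201 (chrX:38405572-38424266) took 13.7% of usage at 3 weeks and 30.5% at 19 months. In the same authors' deposited table the intron of Lamp2-202 (chrX:38421852-38424266) took 22.2% and 9.15%, and that of Lamp2-203 (chrX:38402282-38424266) took 64.1% and 60.4%. The cluster's p was 0.0158 and its adjusted p 0.132 in the authors' deposited table, so it was not called, and no values per library were given. In Atp6v1h the intron that skips an exon (chr1:5098134-5117389, Atp6v1h-204) took 56.8% of usage at 3 weeks and 76.0% at 19 months, with an adjusted p of 0.315 in the authors' deposited table.

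DIEGO, which scores each junction's share within its gene, gave 5 member junctions with q under 0.05 of 239 from 3 weeks to 5 months in the authors' deposited table (1.48% of all junctions). They were 2 of Atp6v0a1 (chr11:101021182-101026659 and chr11:101021182-101026680) and 1 each of Atp6v0a2 (chr5:124637623-124639194), Atp6v1e1 (chr6:120818398-120835896) and Ctsz (chr2:174433667-174438164). The junction listed for Atp6v1e1 ends past the annotated end of the gene at 120822793 and matches no annotated intron. Each had p = 0.0209, the smallest value in the authors' deposited table, and q = 0.0464, and the authors' own column marks none of them as significant. The same Atp6v0a1 introns fell in a LeafCutter cluster whose largest shift was 1.81 percentage points, with an adjusted p of 0.777 in the authors' deposited table. From 5 to 19 months 0 of 240 member junctions passed (0.0% of all), and from 3 weeks to 19 months 0 of 240 (0.69% of all), in the authors' deposited tables. In that last comparison the authors' deposited table lists p = 1.0 for every member junction, so the 0 there says nothing of how close any came.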

How the data were processed

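Genes were counted by the authors as whole-number counts of reads marked unique, deposited as 1 table of 48709 genes by 16 libraries, per the file headers. Every count column was matched to 1 of the 16 samples. The tools bcl2fastq 2.20.0.422, cutadapt 1.18, Trimmomatic 0.38 and featureCounts of Subread, and the build GRCm38.p6, come from the submitters' processing notes. Aligner, annotation and the strand setting of the counting: not given in the sources used here, so reads of overlapping antisense genes (at Ctsa, Ctsb, Ctsl, Ctsz, Lamp1, Atp6v1e1, Atp6v1g2, Atp6v1h, Atp6v0a2 and Atp6v0b) cannot be told apart. Among tested members, Ctsd (with Gm49369) and Ctsl (with Gm49230) also overlap a gene on the same strand, which a strand setting does not separate. Library preparation used a stranded kit, per the labels. The authors' deposited LeafCutter tables hold cluster p-values and, for each intron, its usage as a fraction at each age, printed here in percent, and the authors' deposited DIEGO tables hold p-values, q-values and an abundance change score. Group and age follow the sample titles, and header numbers N1 to N4 were read as replicates 1 to 4.

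Members, lists, tests and alternatives were chosen with earlier results of these data known. Genes were filtered with filterByExpr, scaled by TMM, then fitted by edgeR 4.0.16 in R 4.3.3 with its robust quasi-likelihood test, and p-values were adjusted by Benjamini-Hochberg over all genes tested. SYN against TH used 8 libraries and the ages used all 12 SYN libraries. All members may be named; values per library are given for called members at a mean of 5 CPM or more, at most 5 per role and comparison, and for some uncalled ones. Levels per length use the table's gene length. Introns were matched to GENCODE vM21 with LeafCutter ends moved in by 1 base, as printed (76 of 104 matched). Alternatives were DESeq2 1.42.0 size factors and Wald test, upper-quartile scaling, the mitochondrial genome removed, no filter, at least 1 CPM in 4 libraries, the replicate number as a block, fits on all 16 or only the 8 compared libraries, and leaving out each library. Leaving out 3 weeks SYN replicate 1 with 19 months SYN replicate 1, and 5 months SYN replicates 1 and 4, was chosen after seeing the data. The fit was tested on simulated data. Raw reads and protein sequences were not used here.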

Additional observations from a re-analysis of the deposited data

Results flagged for a closer look

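In 6 of 112 combinations of a member and a group of 4 libraries, for the 28 members at a mean of 5 CPM or more, 1 library lay far from the other 3 by Dixon's ratio. Chance flags about 1 in 20 groups. Of the 6, 3 were in 3 weeks SYN replicate 1: Atp6ap1 at 65.3 CPM (the others at 104 to 108 CPM), Atp6v0e2 at 75.3 CPM (92.4 to 95.8 CPM) and Ctsb at 153 CPM (238 to 254 CPM). Lamp2 stood at 23.9 CPM in 5 months SYN replicate 1 (27.79 to 28.45 CPM in the others). Atp6v0a2 stood at 50.05 CPM in 19 months SYN replicate 2 (54.6 to 55.0 CPM). Atp6v0d1 was the one high value, at 43.3 CPM in TH replicate 3 (36.6 to 37.5 CPM).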

How the results depend on the processing

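No member changed direction with a call under any alternative run. Of the alternative counts and medians, 207 stayed close to the value reported and 18 moved. In SYN against TH, members lower were 11 under upper-quartile scaling (median of members -0.14), the median was -0.17 with no filter and -0.09 with the replicate block, and -0.15 to 0.02 with 1 library left out and 0.03 without 5 months SYN replicates 1 and 4. In 5 months against 3 weeks, members lower were 8 to 16 with 1 library left out, 16 without 3 weeks SYN replicate 1 and 19 months SYN replicate 1, and 6 without 5 months SYN replicates 1 and 4. In 19 months against 5 months, members higher were 1 with the replicate block (Atp6ap2), 1 with only the 8 libraries compared (Ctsb) and 1 without 3 weeks SYN replicate 1 and 19 months SYN replicate 1 (Ctsb). In 19 months against 3 weeks, members higher were 4 under upper-quartile scaling, 4 by DESeq2's Wald test, 1 to 3 with 1 library left out and 1 without the first replicates of both ages. At q under 0.01 the DIEGO junctions from 3 weeks to 5 months were 0. Causes were not tested. With the replicate block, members higher and lower were 13 and 9 (SYN against TH), 0 and 13 (5 months against 3 weeks) and 3 and 9 (19 months against 3 weeks). The block added Atp6v0c and Atp6v1a to the genes lower in SYN. In the count table's header, SYN and TH columns of the same replicate share an identifying number, and the labels do not say whether it marks 1 animal. Numbers were not taken as pairs because the labels are silent on this. Same-numbered SYN and TH libraries correlated in their deviations at 0.0155 to 0.137, and only numbers 1 and 4 had their best partner there. These correlations cannot decide it: same-numbered 19 months and 3 weeks SYN libraries, which cannot share an animal, reached 0.133. Members with under 5 CPM (Ctsc, Ctsh, Ctsk, Lamp3, Atp6v1c2) had SEs of 0.308 to 0.692 in SYN against TH, so differences of that size were not detectable in the main fit. Of these, Lamp3 was called lower in the 2 alternatives without 5 months SYN replicate 4.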

Other observations

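Relative order among the members differed between the fractions in a way that pairs of subunits of one machine make plain. In TH the catalytic-ring gene Atp6v1b2 stood at 26.6 CPM per kb and the accessory subunit Atp6ap1 at 16.6, while in 5 months SYN they stood at 16.9 and 26.0. Atp6v0a1 to Atp6v0a2 was 6.15 to 7.22 per length in TH and 4.12 to 5.48 in 5 months SYN, 4.22 to 4.73 in 3 weeks SYN and 3.66 to 4.72 in 19 months SYN. Atp6v1g2 to Atp6v1g1 was 4.42 to 4.83 in TH, inside the 4.22 to 5.67 of 5 months SYN, and 3.01 to 4.00 at 19 months, below all libraries of 5 months SYN. At 3 weeks it was 3.84 to 4.72, which overlapped both of the later ages. These ratios were picked after their values were seen and have no test.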
